A study of Mus musculus with 6 samples.

Results

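Transcription factor genes that antigen receptor signalling is known to switch on in T cells were followed: the orphan nuclear receptors Nr4a1, Nr4a2 and Nr4a3, the zinc finger factors Egr1, Egr2 and Egr3, the interferon regulatory factors Irf4 and Irf8, and Myc. They were chosen by name and found by Ensembl ID, as 9 of 52550 genes and 42 of 131146 transcripts in the deposited tables. RNA was sequenced from splenic CD3+ T cells of wild-type (WT) C57BL mice. Anti-CD3/CD28 activators had been given to all 6 samples for 24 h, and 3 of them (TCR+DMGV) also received DMGV at 100 ng/ml, while the other 3 (TCR alone) did not. The sample labels call the compound DMGV, whereas the text of the study describes its RNA sequencing, at this dose and time, with LNY1, a factor purified from conditioned medium and assigned there to dimethylarginines; the name used here follows the labels, and which of them was added could not be settled. No unstimulated sample was analysed here, so induction by the receptor could not be checked, and every value is a level in cells already activated for 24 h.

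The 9 factors stand at different steps after the T cell receptor is engaged. Egr1, Egr2, Egr3 and the NR4A genes are immediate early genes, which are transcribed from calcium, ERK and NFAT signals without new protein synthesis. EGR2 and EGR3 restrain activation and favour anergy, and the NR4A receptors, which act without a known natural ligand, are linked to tolerance, exhaustion and regulatory T cells. IRF4 scales with the strength of the receptor signal and is needed for clonal expansion and effector differentiation, IRF8 works in the same family and is best known from B cells and myeloid cells, and MYC drives the growth and metabolic reprogramming that precede division.

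Positions are given on the GRCm38 assembly (GENCODE M21). Nr4a1 is at chr15:101254269-101274795 on the plus strand, and Nr4a2 is at chr2:57106830-57124003 on the minus strand. Nr4a3 is at chr4:48045153-48086447, Egr1 at chr18:34859823-34864984, Egr2 at chr10:67535475-67542188, Egr3 at chr14:70077203-70082614, Irf4 at chr13:30749226-30766976, Irf8 at chr8:120736358-120756694 and Myc at chr15:61985391-61990374, all on the plus strand. Irf8 alone overlaps another annotated gene, Gm20388, which had 0 counts in every sample.

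Promoter windows of 300 bases, from 250 before to 50 after a RefSeq start site on GRCm38.p6, were on hand for 6 of the 9 genes. Those shown were picked because the Nr4a1 window holds a match to the EGR element, and because the Egr2 windows belong to its 2 separate start regions, whose transcripts are compared further on. Capitals mark the motif matches.

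Nr4a1, chr15:101266596-101266895, plus strand: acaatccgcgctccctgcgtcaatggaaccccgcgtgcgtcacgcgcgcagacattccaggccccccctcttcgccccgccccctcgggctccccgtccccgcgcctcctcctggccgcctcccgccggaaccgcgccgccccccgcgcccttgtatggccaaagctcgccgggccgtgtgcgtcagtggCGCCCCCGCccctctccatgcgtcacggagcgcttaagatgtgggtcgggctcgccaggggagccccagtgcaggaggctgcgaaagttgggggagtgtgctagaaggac
Egr2, chr10:67535249-67535548, plus strand: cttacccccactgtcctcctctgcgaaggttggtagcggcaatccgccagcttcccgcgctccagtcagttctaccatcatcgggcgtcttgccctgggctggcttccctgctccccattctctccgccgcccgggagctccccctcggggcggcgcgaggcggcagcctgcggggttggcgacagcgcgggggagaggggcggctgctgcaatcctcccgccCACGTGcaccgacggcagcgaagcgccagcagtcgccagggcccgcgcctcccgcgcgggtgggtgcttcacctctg
Egr2, chr10:67537619-67537918, plus strand: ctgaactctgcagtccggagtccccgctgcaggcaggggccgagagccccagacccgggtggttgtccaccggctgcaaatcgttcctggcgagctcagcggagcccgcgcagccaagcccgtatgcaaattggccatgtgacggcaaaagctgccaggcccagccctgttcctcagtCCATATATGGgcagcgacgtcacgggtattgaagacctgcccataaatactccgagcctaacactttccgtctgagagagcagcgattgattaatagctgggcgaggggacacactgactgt

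The motifs were searched on both strands as the EGR element (GCGTGGGCG or GCGGGGGCG), the NR4A element NBRE (AAAGGTCA), the E-box that MYC can bind (CACGTG), the CRE (TGACGTCA), the AP-1 site (TGANTCA), the ISRE (GAAANNGAA) and the CArG box that serum response factor binds. The EGR match of Nr4a1 lay from 60 to 52 bases before the start on the reverse strand, and 3.47% of 32851 windows held one. The upstream Egr2 window held an E-box from 27 to 22 bases before the start (7.15% of windows), and the downstream one held a CArG box from 72 to 63 bases before it (1.63% of windows). Egr2 has 5 windows in all, and the one at chr10:67537316-67537615, not printed, held an ISRE from 197 to 189 bases before its start (8.56% of windows) and a CArG box from 72 to 63 bases before it. No motif of the 7 was found in the windows of Nr4a2, Nr4a3, Irf4 and Irf8. A match is only a run of letters and was not tested for binding.

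All 9 genes were well expressed, and Irf4 stood far above the others. Levels per length are the FPKM as deposited, which scale fragments to a length per gene and to sequencing depth. The length used for each gene is not given in the sources used here. Irf4 had a median of 221.8 over the 6 samples, which exceeded 98.7% of the tested genes. Myc followed at 104.2, Nr4a1 at 91.1 and Irf8 at 51.8. Egr2 had a median FPKM of 33.0, Nr4a3 of 28.6, Egr1 of 25.2, Egr3 of 17.7 and Nr4a2 of 11.9, so that the least expressed of the 9 still exceeded 72.8% of tested genes.

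The order held in every sample at most steps. Irf4 exceeded Myc, Myc exceeded Nr4a1 and Nr4a1 exceeded Irf8 in 6 of 6 samples, although the ranges of Myc and Nr4a1 overlapped. Egr2 exceeded Nr4a3 in only 3 of 6 samples, and Nr4a3 exceeded Egr1 in 3 of 6, so these neighbours were not separated on this scale. The FPKM of the annotated transcripts was summed instead as an alternative added after the data were seen. Irf8 then rose from 51.8 to a median of 131.1 and passed Nr4a1. As Irf8-201, of 2847 bases, held 98.1% to 98.9% of the Irf8 counts, the order of Irf8 and Nr4a1 depends on the length used. Egr2 rose from 33.0 to 59.1, beside 34.9 for Nr4a3, although their ranges still met.

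**Figure D1:**
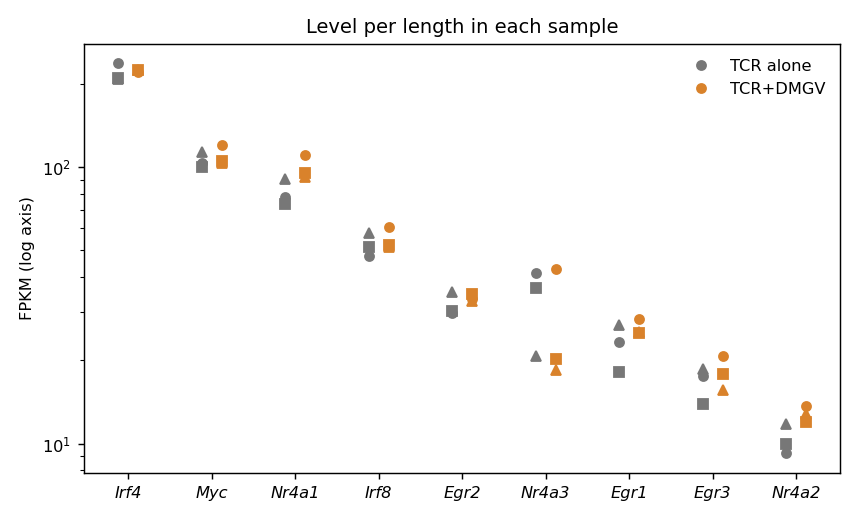
Level of the 9 genes per length (FPKM, log axis) in each sample, with TCR alone in grey and TCR+DMGV in orange and circles, squares and triangles for replicates 1, 2 and 3. Irf4 lies above all other genes in every sample, while Nr4a3 spreads from 18.5 to 42.7.

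DMGV was accompanied by small differences in these genes, none of which passed the test. Of the 9, 8 had a higher mean in TCR+DMGV than in TCR alone, and Nr4a3 had a lower one. In edgeR's quasi-likelihood test 0 of the 9 passed an adjusted p of 0.05, as did 0 in DESeq2, against 2 of 14786 genes tested by edgeR (0.0135%) and 14 of 19448 by DESeq2 (0.072%). At an unadjusted p under 0.05 there were 2 of the 9, Nr4a1 and Nr4a2, against 3.19% of all genes. The median log2 fold change of the 9 was 0.10, beside 0.00243 over all tested genes, and it ranged from 0.075 to 0.17 with 1 sample left out, the highest being without TCR alone replicate 3. All 9 passed the filter on low counts.

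A difference among the samples ran alongside, and whether it came from the libraries or from the cells was not tested. TCR+DMGV replicate 1 held the highest value of 7 of the 9 genes, and the main axis of variation over all genes, with 32.2% of the variance, set that sample and TCR alone replicate 3 apart from the other 4. Total counts lay between 37758725 and 43718867 per sample, above the read depth the labels name. The samples are labelled as biological replicates. The 16 T cell markers summed to 5111 to 5559 CPM (counts scaled to library size) in TCR alone. In TCR+DMGV they summed to 5487 to 5792. Of the 16, 15 had a higher mean in TCR+DMGV, against 50.6% of all tested genes. Groups did not overlap for 4, all higher in TCR+DMGV, against 4.92% of all tested genes. The median log2 fold change of these markers was 0.097, beside 0.10 for the 9 genes. Their part in the differences below was not tested. Of 12 activated T cell markers, 6 had a higher mean and 6 a lower one, with a median log2 fold change of 0.021. Among them Mki67 had 508.8, 442.7 and 358.3 CPM in TCR alone and 296.7, 321.5 and 318.2 in TCR+DMGV. Its groups did not overlap (log2 fold change -0.48, standard error 0.13, edgeR adjusted p 0.999). In bulk RNA, more expressing cells and more RNA per cell cannot be told apart.

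Among the NR4A receptors, Nr4a1, which encodes NUR77 and serves as a reporter of receptor signalling, had 214.7, 208.0 and 244.9 CPM in the TCR alone samples and 301.7, 267.5 and 261.5 in the TCR+DMGV samples. Every TCR+DMGV sample was above every TCR alone sample. The means were 222.6 ± 19.7 and 276.9 ± 21.7 CPM (SD over 3 samples), which came to 0.32 as a log2 fold change with a standard error of 0.095 and a 95% interval from 0.093 to 0.54. The adjusted p in edgeR was 0.999, and the unadjusted p of 0.012 ranked 97 among 14786 genes.

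Nr4a2, which encodes NURR1, had 41.7, 46.4 and 52.6 CPM in TCR alone and 61.1, 55.5 and 59.8 in TCR+DMGV. Its groups did not overlap either. The log2 fold change was 0.33 with a standard error of 0.11 and an interval from 0.069 to 0.58 (edgeR adjusted p 0.999). Thus 2 of the 9 genes had groups without overlap, both higher in TCR+DMGV, where 4.92% of all tested genes were so placed in that direction and 8.86% in either direction. The 2-sided exact permutation test gave 0.10 for each of these genes, the smallest p that 3 samples against 3 allow.

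Nr4a3, which encodes NOR1, behaved otherwise. It had 275.7, 251.1 and 135.8 CPM in TCR alone and 282.0, 138.6 and 127.4 in TCR+DMGV. The samples fell into 3 high and 3 low ones, each set holding both treatments, and the highest was 2.21 times the lowest. The log2 fold change of -0.27 had a standard error of 0.37 and an interval from -1.13 to 0.59. Its value rests on which samples are kept: without TCR alone replicate 3 and TCR+DMGV replicate 1, the samples set apart over all genes, it was -0.98 and passed in edgeR (adjusted p 0.042), with 2 samples left in each group. Those are also the low TCR alone sample and the high TCR+DMGV sample of this gene. Without TCR+DMGV replicate 1 alone it was -0.73, and without TCR+DMGV replicate 3 it was -0.066, neither of which passed.

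Nr4a3 varied more over the samples than most well expressed genes. Its range over the 6 samples, 1.15 on the log2 CPM scale, was wider than that of 96.2% of 5625 genes with a mean log2 CPM above 5, whose median range was 0.32. The gene nearest to it by root mean square difference of centred log2 CPM, looked up after its values were seen, was Pogk, with 85.2, 77.3 and 41.2 CPM in TCR alone and 87.4, 41.8 and 32.9 in TCR+DMGV. The difference was 0.092 over 6 samples, and the next gene, Tk2, was at 0.22. How many genes split the samples in the same way was not counted.

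**Figure D2:**
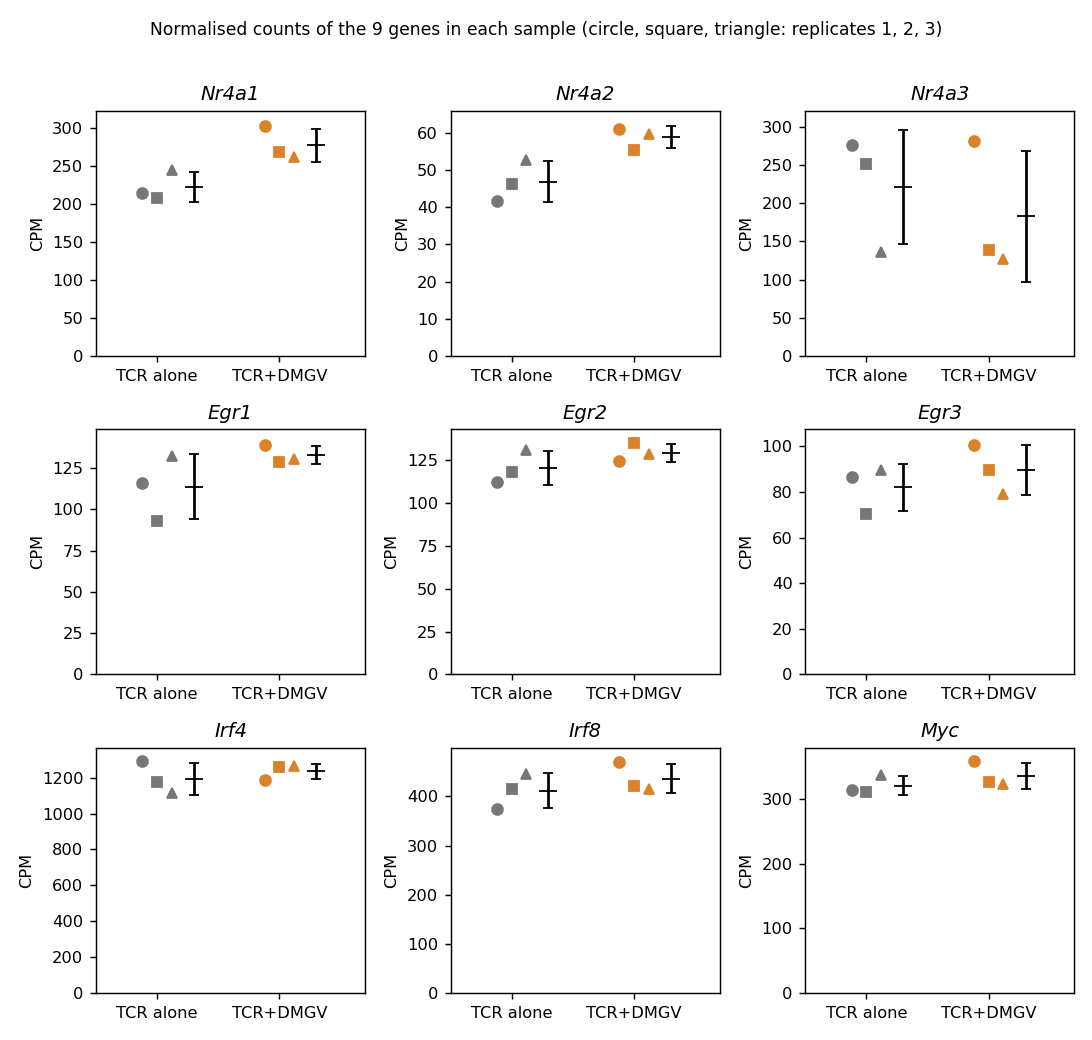
CPM of each gene in each sample (grey, TCR alone; orange, TCR+DMGV; circle, square and triangle for replicates 1, 2 and 3), with mean and SD as black bars and axes from 0. Nr4a1 and Nr4a2 separate the groups, whereas Nr4a3 splits both groups.

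The EGR factors overlapped between groups. Egr1 had 115.9, 92.8 and 132.2 CPM in TCR alone and 139.0, 128.8 and 130.3 in TCR+DMGV, a log2 fold change of 0.22 with a standard error of 0.13. The TCR+DMGV samples lay close together, and TCR alone replicates 1 and 2 were below all of them. Leaving out TCR alone replicate 2 gave it a log2 fold change of 0.094, and leaving out replicate 3 of that group gave 0.35. Egr2, the partner of Egr3 in the anergy programme, had 112.3, 117.8 and 131.1 against 124.4, 134.9 and 128.3 CPM, and its interval for the log2 fold change ran from -0.098 to 0.30. Egr3 had 86.4, 70.4 and 89.6 against 100.8, 89.5 and 79.0 CPM, with an interval from -0.18 to 0.43. The 3 genes had edgeR adjusted p values of 0.999.

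Irf4, Irf8 and Myc differed least, and their intervals were the narrowest together with that of Egr2. Irf4 had 1291, 1175 and 1115 CPM in TCR alone and 1187, 1257 and 1262 in TCR+DMGV, with an interval of the fold from 0.913 to 1.17. Its highest and its lowest sample were both TCR alone samples. Irf8 had 374.2, 414.3 and 446.3 against 470.2, 422.0 and 415.7 CPM, with a fold between 0.913 and 1.23. Myc had 313.0, 310.3 and 337.4 against 358.2, 325.9 and 322.7 CPM, with a fold between 0.926 and 1.19. A p that misses the threshold does not show that the levels were alike, and these intervals give the sizes left possible.

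Irf4 and Irf8 are also expressed by B cells, dendritic cells and macrophages, so the markers of those cells are given beside them. Among the B cell markers, Cd79a was at most 0.29 CPM and Ms4a1 at most 1.26; the sum of the list, 256.1 to 280.7 CPM in TCR alone and 257.8 to 266.0 in TCR+DMGV, was mostly Ighm (233.7 to 261.6 in TCR alone). The dendritic cell list summed to 110.6 to 134.6 and 123.6 to 143.0 CPM, mostly Bst2 and Cd74, with Clec9a, Siglech and Cd209a without a count in any sample; 8 of its 9 tested genes had a higher mean in TCR+DMGV (median log2 fold change 0.19), and H2-Eb1 had groups without overlap. All 4 tested NK cell markers were higher in the mean too (median 0.33), each with groups that overlapped. Of these, Ncr1 was at most 0.83 CPM and Klrb1c at most 0.86, while Klrd1 reached 15.8 and Eomes 71.9. The part of these lists in the differences was not tested. The macrophage and monocyte list summed to 27.8 to 52.4 and 29.8 to 34.5 CPM, mostly Ly6c2. Csf1r was at 6.91 to 8.67 CPM over the samples, and C1qc and Cd14 were at 0. Irf8 alone exceeded each of these sums in every sample. CPM of different genes cannot show which cells express Irf8, and its source was not tested.

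**Figure D3:**
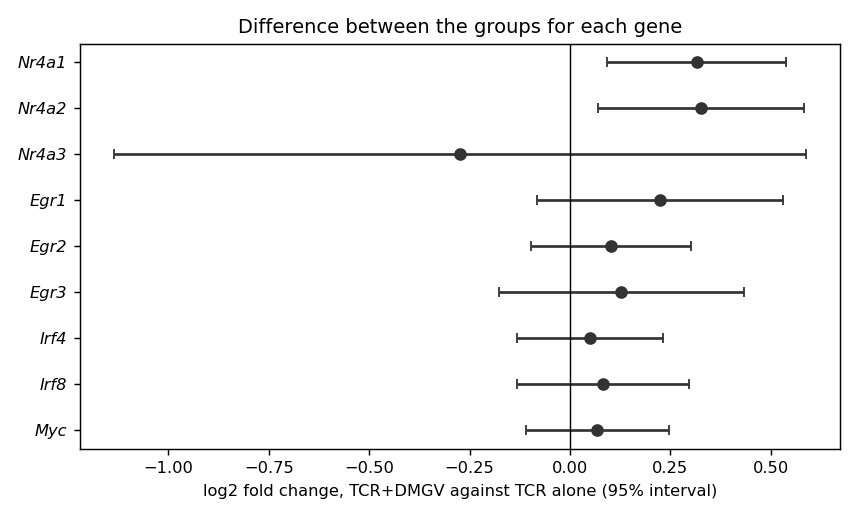
Log2 fold change of each gene, TCR+DMGV against TCR alone, with its 95% interval from edgeR. The intervals of Nr4a1 and Nr4a2 lie above 0, 7 of 9 hold 0, and that of Nr4a3 is the widest.

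The genes nearest in pattern over the samples were looked up by the fixed rule for Nr4a1, Egr2, Irf4, Irf8 and Myc. They are the closest of 9043 genes by selection. No distance to be expected without a link was computed, and shared control was not tested. Nr4a1 was nearest to Ears2 (root mean square difference 0.026 on centred log2 CPM over 6 samples) and 2310033P09Rik (0.038) of 9043 genes, and its nearest relative among the 9 was Nr4a2 (0.080), which ranked 27 among all genes. Egr2 was nearest to Hspbp1 and Ap4s1, Irf4 to Klf7 and Mfsd14a, Irf8 to Rgs10 and Hadha, and Myc to Cdk2ap2 and Egln2, with differences between 0.0092 and 0.021.

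Reads were also assigned to annotated transcripts by the authors' software. Of the 42 transcripts, 35 were tested, 0 passed in edgeR or in DESeq2, and 2 had an unadjusted p under 0.05, against 0 of 38401 transcripts that passed in edgeR (0%) and 3.22% at that unadjusted level. DESeq2 called 400 of 50760 transcripts over the whole table (0.788%), none of them among the 35. Of the 35, 4 had groups without overlap, beside 9.25% of all tested transcripts. Shares below are percentages of a gene's counts, and their 95% Wilson intervals were at most 4.74 percentage points wide, counting error only. Among the 42 transcripts, shares did not overlap between groups for Nr4a2-206, Nr4a3-201, Irf8-202 and Myc-204 (2-sided exact permutation p 0.10 each). Only the share of Myc-204 was higher in TCR+DMGV. The 9.25% refers to abundance, and no such rate was computed for shares, so these cannot be set against a background.

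Irf4 was split between 2 transcripts that differ by 3 bases at the start of exon 5, 1 codon of the reading frame. Irf4-201 uses the acceptor at position 30753445 of chromosome 13 and Irf4-202 the one at 30753448. The joined ends of exons 4 and 5 are shown because these 3 bases, in capitals, are all that separates the transcripts.

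Irf4-201: ctgccagcccagCAGgttcataactac
Irf4-202: ctgccagcccaggttcataactac

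Irf4-201 held 62.5%, 64.8% and 59.6% of the counts in the TCR alone samples, against 63.9%, 62.2% and 63.1% with DMGV. The longer form led in every sample at almost the same share, and the groups overlapped (2-sided exact permutation p 0.80).

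Myc had the same kind of junction, where exon 2 of Myc-206 starts 3 bases after that of Myc-201, at position 61987510 in place of 61987507 of chromosome 15. The joined ends of exons 1 and 2 are given with the extra bases in capitals.

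Myc-201: ttggaaaccccgCAGacagccacgacg
Myc-206: ttggaaaccccgacagccacgacg

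Myc-206 held between 48.2% and 52.9% of the Myc counts in the 6 samples. Unlike the Irf4 pair, Myc-201 has 517 bases that Myc-206 lacks, and the 3 at this junction are only part of them. The share of Myc-206 therefore does not measure the use of this acceptor alone. Myc-201 and Myc-205 have the same exons and differ only in the annotated start of the reading frame, so reads cannot tell them apart. Myc-201 was listed at 0 counts in TCR+DMGV replicate 2 and at 4918 in TCR+DMGV replicate 1, while Myc-205 was at 5389 and 1008. Their sum was steady, at 35.7% to 41.3% of the counts.

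The assignment of Egr2 reads to transcripts differed in 1 sample. Egr2-201, the 2-exon form that starts in the downstream region, held 71.5% and 77.6% of the counts in TCR alone replicates 1 and 3 and 72.1%, 79.1% and 75.1% in TCR+DMGV, but 17.7% in TCR alone replicate 2. In that sample Egr2-202, which lacks 101 bases of Egr2-201, held 59.1%, beside at most 4.09% elsewhere. Together they held 73.0% to 83.1% in all samples. All bases of Egr2-202 also lie in Egr2-201. Whether the form or only the assignment of reads differed in that sample was not tested. Egr2-205, which begins in the upstream region whose window holds the E-box, held 15.3% to 21.9%, with groups that overlapped (exact permutation p 0.90).

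Nr4a2 was the most divided gene. Nr4a2-201 held from 18.2% to 70.6% of its counts and Nr4a2-202 from 12.2% to 55.6%, the highest share of the latter being in TCR+DMGV replicate 1. Nr4a2-203 had counts in TCR alone replicate 2 (533) and TCR+DMGV replicate 3 (430) and was at 0 in the other 4. Nr4a2-206, annotated as a target of nonsense-mediated decay, held 5.18% to 22.2%. Its shares did not overlap between groups, at 14.5%, 14.3% and 22.2% in TCR alone against 5.18%, 8.20% and 11.99% in TCR+DMGV (2-sided exact permutation p 0.10, the smallest possible), whereas its own abundance did. All bases of Nr4a2-206 also lie in Nr4a2-203, and how well reads were divided between them was not tested. Nr4a2-205 reached 20.7% in TCR+DMGV replicate 1 and at most 4.76% elsewhere. The gene's total separated the groups, but the abundance of no single transcript of at least 10% did.

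The remaining genes had 1 leading form. Nr4a1-201 and Egr1-201 held all counts of their genes, Irf8-201 held 98.1% to 98.9%, Egr3-204 held 76.6% to 91.0% and Egr3-201 8.25% to 23.3%. Nr4a3-201 held 89.4%, 87.3% and 86.9% in the TCR alone samples against 85.5%, 86.6% and 83.4% with DMGV, without overlap (2-sided exact permutation p 0.10). The high and low samples of Nr4a3 were the same in Nr4a3-201, with 9357, 8945 and 10729 counts against 4888, 5171 and 4208, and in Nr4a3-203, with 910, 1129 and 1381 against 415, 566 and 405.

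**Figure D4:**
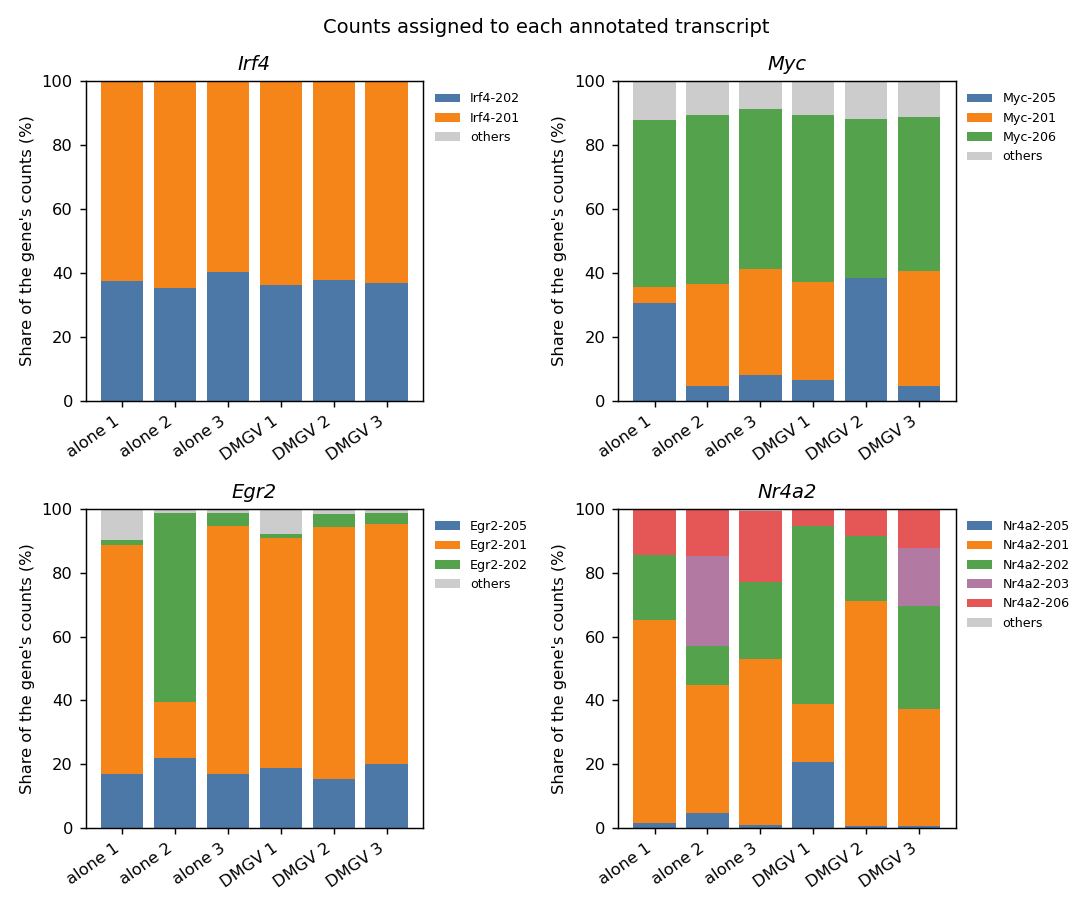
Share of each gene's counts (%) assigned to its annotated transcripts in the 3 TCR alone and 3 TCR+DMGV samples, for Irf4, Myc, Egr2 and Nr4a2; transcripts under 10% everywhere are grey. Irf4 keeps its shares, Egr2 reads are assigned mostly to another transcript in TCR alone replicate 2, and Nr4a2 shares differ from sample to sample.

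The genes around these factors were examined as lists, and no gene of them passed in edgeR or in DESeq2. Those named are the genes of smallest p in each list. Over all tested genes, 3.19% had an unadjusted p under 0.05 in edgeR and 8.86% had groups without overlap in either direction. The counts below are to be read beside these shares. Of the other members of the families, 9 were tested, 5 had a higher mean and the median log2 fold change was 0.027. Irf7, which amplifies type I interferon responses, was at 2.55, 2.35 and 3.29 CPM in TCR alone and 4.34, 3.90 and 4.01 in TCR+DMGV (log2 fold change 0.58, standard error 0.20), with no overlap at this low level. Egr4 did not overlap either (0.34), and Irf5 was at -0.47 with overlap. One of the 9 had an unadjusted p under 0.05.

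Of 25 partners and corepressors, 12 had a higher mean and 0 an unadjusted p under 0.05, with a median of -0.0054. Mlx, a partner of MYC-related factors, was at 0.28, Mxd3, an antagonist of MYC, at -0.28 without overlap, and Nab2, a corepressor of EGR proteins, at 0.18. Of 31 other immediate early genes, 20 had a higher mean and the median was 0.057. Tnf, the inflammatory cytokine, had 27.8, 29.7 and 29.1 CPM in TCR alone and 37.8, 33.1 and 39.9 in TCR+DMGV, without overlap, and was the 1 gene with an unadjusted p under 0.05 (log2 fold change 0.35, standard error 0.10). Ier3 was at -0.30, also without overlap, and Jun at -0.16.

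Of 20 genes linked to EGR2 and EGR3, 10 had a higher mean, the median was 0.029 and 1 had an unadjusted p under 0.05. That was Dgka, the diacylglycerol kinase that dampens receptor signals, at 200.9, 215.9 and 217.1 against 249.4, 231.9 and 246.0 CPM (log2 fold change 0.20, standard error 0.071), without overlap. Nab2 was at 0.18 and Socs3 at -0.21. Of 16 genes linked to NR4A, 9 had a higher mean, the median was 0.081 and 1 had an unadjusted p under 0.05. That was Foxp3, which defines regulatory T cells, at 27.8, 25.5 and 32.5 against 36.2, 35.4 and 38.3 CPM (0.36, standard error 0.11), without overlap, whereas Ikzf2, also of regulatory T cells, was at -0.90 with a standard error of 0.41, and Ctla4 was at -0.24.

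Of 19 tested genes linked to IRF4, 8 had a higher mean, the median was -0.040 and 2 had an unadjusted p under 0.05, Foxp3 and Il10. Il10, the anti-inflammatory cytokine, was low, at 4.45, 4.95 and 4.47 CPM in TCR alone and 2.67, 3.04 and 3.61 in TCR+DMGV (-0.57, standard error 0.18), without overlap. Of 40 genes linked to MYC, 26 had a higher mean, the median was 0.024 and 0 had an unadjusted p under 0.05. The smallest p values there were those of Eif4a1, an RNA helicase of translation initiation (0.16), Slc7a5, an amino acid transporter (-0.12), and C1qbp, a mitochondrial protein (0.12). Over all tested genes, 50.6% had a higher mean.

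**Figure D5:**
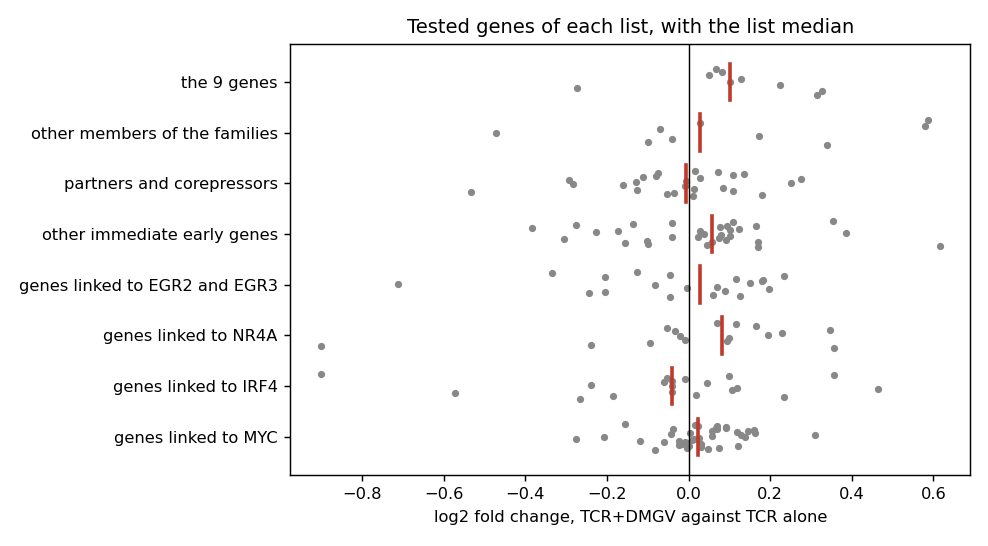
Log2 fold change (TCR+DMGV against TCR alone) of each tested gene, by list, with the list median in red. Medians lie between -0.040 and 0.10, and single genes spread to both sides of 0.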

How the data were processed

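Counts and FPKM per gene and per transcript were deposited by the authors for 6 libraries of polyadenylated RNA. Per the labels and methods, reads were filtered with SOAPnuke, aligned with HISAT2 2.0.4 and assembled with StringTie; how counts were derived, and whether counting used strand, is not given in the sources used here. The submitters' processing notes name mm9, whereas 99.7% of the gene IDs matched GENCODE M21 (GRCm38), from which positions were taken.

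Counts were tested with edgeR 4.0.16 (TMM scaling, filterByExpr, quasi-likelihood test, Benjamini-Hochberg adjustment over all 14786 genes or 38401 transcripts, threshold 0.05) under R 4.3.3. The standard error is the absolute log2 fold change divided by the root of F. CPM are TMM-scaled, and the log2 CPM use a prior count of 2. DESeq2 1.42.0 and limma 3.58.1 on log2(FPKM + 1) served as alternatives. The fits were tested on simulated data. Promoters came from RefSeq, GRCm38.p6.

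Named are the 9 genes, the 3 genes of smallest p in each list, the 2 genes nearest in pattern to Nr4a1, Egr2, Irf4, Irf8 and Myc, and transcripts with at least 10% of a gene's counts in a sample. Irf8-202 and Myc-204, which held less, are named for shares without overlap. Genes, lists and tests were chosen with earlier results of these data known.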

Additional observations from a re-analysis of the deposited data

How the results depend on the processing

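Each gene's log2 fold change kept its direction in 162 of 162 values over 18 settings. All settings reuse the same 6 samples or part of them, so these values are not independent. Some were close to no change, such as 0.0019 for Irf8 without TCR alone replicate 1. Of the 9 genes, 0 passed under each of these settings except without both samples set apart over all genes (TCR alone replicate 3 and TCR+DMGV replicate 1), where 1 passed, Nr4a3; the cause was not tested. In alternatives added after the data were seen, 2 of the 9 had groups without overlap with DESeq2-style size factors, library size alone, length correction or FPKM as deposited, and 3, Egr1 included, with GC correction. Genes called over the whole table numbered 2, and 14 with DESeq2, 12 without both samples set apart, 1 with library size alone, 1 with all genes of at least 1 count, 1 with GC correction, 0 with length correction and 0 with log2(FPKM + 1) or log2(FPKM + 0.1). They ranged from 0 to 5 with 1 sample left out: 5 without TCR+DMGV replicate 1, 2 without TCR+DMGV replicate 3 and 0 without any of the other 4. Transcripts called numbered 0, and 400 with DESeq2 and 3 with log2(FPKM + 1), and ranged from 0 to 1 with 1 sample left out (1 without TCR alone replicate 3). With the replicate block 0 genes and 0 transcripts were called. Deviations of same-numbered samples correlated at -0.15, 0.12 and -0.15, and not every sample correlated best with its own number. The highest value, 0.31, was between TCR alone replicate 3 and TCR+DMGV replicate 1, the samples set apart. With 3 samples per group, these values cannot show whether same-numbered samples were paired.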
